A study of Mus musculus with 10 samples.

Results

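Metallothioneins were followed in the retina of mice that had received a green fluorescent protein (GFP) vector in either of 2 adeno-associated virus capsids. The genes were Mt1, Mt2 and Mt3, which encode metallothioneins, and Mtf1, which encodes the metal-responsive transcription factor 1 that activates Mt1 and Mt2. They were found by matching the Ensembl identifiers of the deposited table to these symbols in GENCODE mouse release M21, with no use of their values, and all 4 matched. They are 4 of 57010 genes in the table and 4 of the 15539 genes with enough counts to be tested. A separate member of the family, Mt4, which is known from stratified squamous epithelia, had a count of 0 in all 10 libraries and was not tested.

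The mice were 6 to 8 weeks old, 5 were injected into the vitreous with AAV2-GFP and 5 with AAV206-GFP, and their retinas were collected 14 days later for bulk RNA sequencing. AAV2 is a capsid in common use for gene transfer to inner retinal cells. AAV206 is a capsid that the series title presents as specific to the retinal pigment epithelium. All 10 mice therefore carried a GFP vector and an injected eye, and differences below are between capsids. Strain, sex, vector dose, the promoter driving GFP and whether a library held 1 or both retinas are not given in the sources used here, and uninjected retinas were not analysed here.

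Metallothioneins are small proteins rich in cysteine whose thiol groups bind zinc, copper and cadmium and react with oxidants. When free zinc rises, MTF-1 binds zinc through its zinc fingers, moves to metal response elements in the promoters of Mt1 and Mt2 and raises their transcription, and glucocorticoids, inflammatory cytokines and oxidative stress are further known inducers of this pair. Mt3 differs in that it is found mostly in the nervous system and responds weakly to metals, and in the retina metallothioneins have been described in Müller glia, astrocytes and the retinal pigment epithelium.

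The metallothionein genes lie in a cluster on chromosome 8 and Mtf1 lies on chromosome 4, all on the forward strand (build mm10, GENCODE M21). Mt3 (ENSMUSG00000031760) is at chr8:94152607-94154146, Mt2 (ENSMUSG00000031762) at chr8:94172664-94173568 and Mt1 (ENSMUSG00000031765) at chr8:94179082-94180327. Mtf1 (ENSMUSG00000028890) is at chr4:124802104-124849800 and has 11 exons. The gap between Mt2 and Mt1 is 5514 bases and that between Mt3 and Mt2 is 18518 bases. The transcripts are short, 549 bases for Mt1, 511 for Mt2 and 536 for Mt3, against 7631 for Mtf1, so few reads fall on the metallothioneins at a given abundance. The coding sequences, from GENCODE M21 and without the stop codon, are shown because their likeness bears on whether reads of 1 gene could be counted for another. Capitals mark cysteine codons (TGC or TGT), 20 in each gene.
Mt1: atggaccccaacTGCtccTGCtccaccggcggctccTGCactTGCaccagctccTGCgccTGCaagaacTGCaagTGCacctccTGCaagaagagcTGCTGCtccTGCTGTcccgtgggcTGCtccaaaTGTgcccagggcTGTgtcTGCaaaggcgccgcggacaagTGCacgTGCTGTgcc
Mt2: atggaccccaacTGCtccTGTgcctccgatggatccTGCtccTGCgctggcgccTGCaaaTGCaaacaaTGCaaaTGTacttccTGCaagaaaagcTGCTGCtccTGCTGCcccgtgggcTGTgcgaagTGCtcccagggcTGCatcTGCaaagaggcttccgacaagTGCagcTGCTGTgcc
Mt3: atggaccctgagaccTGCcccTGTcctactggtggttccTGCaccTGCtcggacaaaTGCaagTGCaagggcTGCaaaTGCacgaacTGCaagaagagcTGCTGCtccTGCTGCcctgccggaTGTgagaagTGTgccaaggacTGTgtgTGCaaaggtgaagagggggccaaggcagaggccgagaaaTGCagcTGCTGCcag

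The coding sequences span 61 codons in Mt1 and Mt2 and 68 in Mt3, each over 3 exons. Aligned over their coding bases, Mt1 and Mt2 shared 79.2% of positions, Mt1 and Mt3 65.7%, and Mt2 and Mt3 67.2%. The longest run of identical bases was 20 between the Mt1 and Mt2 transcripts, 27 between Mt1 and Mt3, and 20 between Mt2 and Mt3, far shorter than the 150-base reads. No other annotated transcript, read in its own direction, shared an exact run of 50 bases with any of the 4. Antisense overlaps and inexact copies were not searched. Decimals, which an estimator leaves where it divides reads among genes, occurred for Mt2 in 1 library and for Mtf1 in 9 libraries. Their source was not found by this search.

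The 250 bases before the annotated starts of Mt1 and Mt2 are shown as a description (RefSeq, build GRCm38.p6). A link of their motifs to the changes between the groups was not tested. Capitals mark matches on either strand to the metal response element core, searched as TGCACNC and TGCGCNC.
Mt1, chr8:94178839-94179088, forward strand: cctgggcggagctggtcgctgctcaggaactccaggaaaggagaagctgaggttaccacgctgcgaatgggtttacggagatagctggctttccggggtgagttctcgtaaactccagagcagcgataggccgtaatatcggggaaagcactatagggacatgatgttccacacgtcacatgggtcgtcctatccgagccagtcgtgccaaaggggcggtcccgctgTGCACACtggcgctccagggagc
Mt2, chr8:94172368-94172617, forward strand: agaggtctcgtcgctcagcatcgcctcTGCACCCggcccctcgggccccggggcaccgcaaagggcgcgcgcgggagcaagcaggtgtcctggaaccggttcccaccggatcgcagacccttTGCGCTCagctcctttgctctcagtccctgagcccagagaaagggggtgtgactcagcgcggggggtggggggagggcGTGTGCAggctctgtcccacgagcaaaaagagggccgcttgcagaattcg

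The Mt1 window held 1 match, TGCACAC at −23 to −17 from the start. The Mt2 window held 3, TGCACCC at −223 to −217, TGCGCTC at −128 to −122 and, on the reverse strand, GTGTGCA as read on the forward strand at −50 to −44. The Mt2 window also held TGACTCAGC at −79 to −71, a match to the antioxidant response element core TGACNNNGC. The windows of Mt3 and Mtf1 held no metal response match. Among 32851 promoter windows of the same length, 21.4% held at least 1 metal response match, 1.26% held at least 3 and 10.2% held TGACNNNGC. The palindrome bound by the glucocorticoid receptor was in none of the 4 windows and in 0.0396% of all windows. At so low a share its absence from 4 windows says nothing of these genes. These matches are descriptions of letters within windows that end at the RefSeq gene start, and GENCODE M21 places the starts of Mt1 and Mt2 some bases away. The windows end at 94179088 for Mt1 and 94172617 for Mt2, while the coding bases begin at 94179311 and 94172848. The bases between were not searched, so the match counts are those of the windows and not of the whole promoters.

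The libraries held 10989843 to 12752604 counts, at which 3 counts equal 0.232 to 0.274 CPM (the CPM scale after TMM scaling of library sizes). In edgeR's quasi-likelihood test over all 15539 genes, 1747 had a Benjamini-Hochberg adjusted p under 0.05, which is 11.2% (924 or 5.95% higher and 823 or 5.3% lower with AAV206-GFP). The groups did not overlap for 9.78% of tested genes (5.41% higher, 4.37% lower). In the same edgeR test 4352 of the 15539 genes had an unadjusted p under 0.05, while DESeq2 called 2254 genes and limma-voom 1643. Such counts in the gene lists below stand beside these. Rod markers, which define retina, had summed levels of 52450 to 61882 CPM in the 10 libraries. AAV2-GFP replicate 1 stood apart in immune genes, with 271 CPM of summed microglia and macrophage markers against 27.2 to 52.9 CPM in the other AAV2-GFP libraries, and earlier results of these data set replicates 1 and 4 of that group apart, so values without both are given where they end a call named here. In bulk retina, fewer cells of a type and less RNA per cell cannot be told apart, and the metal content of the tissue was not measured.

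Mt2 rose with AAV206-GFP, Mt1 and Mt3 did not pass the test, and neither did Mtf1. The 1 call among 4 genes is 1 gene at a background of 11.2%. The Mt2 levels in AAV2-GFP replicates 1 to 5 were 6.96, 5.75, 7.35, 5.73 and 5.72 CPM. In AAV206-GFP replicates 1 to 5 they were 13.6, 8.94, 12.3, 11.1 and 12.4 CPM. The groups did not overlap, since the lowest AAV206-GFP library, replicate 2, lay above the highest AAV2-GFP library (replicate 3). The means were 6.30 ± 0.790 and 11.7 ± 1.77 CPM (SD, n = 5 each), a 1.85-fold difference with a 95% interval of 1.49 to 2.30. The log2 fold change was 0.89 with a standard error of 0.15 and an adjusted p of 0.00123 (edgeR quasi-likelihood test). These levels rest on 64 to 95 counts per AAV2-GFP library and 98 to 162 per AAV206-GFP library, and 200 tested genes had a smaller unadjusted p. Leaving out each library in turn gave log2 fold changes of 0.83 to 0.97 with edgeR adjusted p-values of 0.00113 to 0.00546. Without AAV2-GFP replicates 1 and 4 the log2 fold change was again 0.89, with an edgeR adjusted p of 0.0062.

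Mt1, the partner of Mt2 in binding and buffering zinc, was at 18.2, 16.8, 25.8, 16.8 and 18.3 CPM in AAV2-GFP replicates 1 to 5. In AAV206-GFP replicates 1 to 5 it was at 22.1, 24.8, 22.9, 17.5 and 27.3 CPM. The groups overlapped: AAV2-GFP replicate 3 was above 4 of the 5 AAV206-GFP libraries, and AAV206-GFP replicate 4 was below 3 of the 5 AAV2-GFP libraries. The means were 19.2 ± 3.79 and 22.9 ± 3.64 CPM (SD, n = 5 each), with a log2 fold change of 0.26, a standard error of 0.14 and an edgeR adjusted p of 0.228. The 95% interval of −0.03 to 0.54 holds both no difference and a rise smaller than that of Mt2, whose own interval began at 0.58. Without AAV2-GFP replicate 3 the log2 fold change of Mt1 was 0.39 with an edgeR adjusted p of 0.0557, and without AAV2-GFP replicates 1 and 4 it was 0.17 with an edgeR adjusted p of 0.553.

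Mt3, also known as growth inhibitory factor, was at 3.71, 4.85, 7.66, 6.29 and 5.21 CPM in AAV2-GFP replicates 1 to 5. In AAV206-GFP replicates 1 to 5 it was at 4.21, 3.47, 6.55, 3.77 and 6.10 CPM. Each group held libraries near the bottom and near the top of the joint range, so the groups overlapped over most of it. The log2 fold change was −0.20 with a standard error of 0.23, a 95% interval of −0.69 to 0.29 and an edgeR adjusted p of 0.601. That interval holds neither a rise nor a fall of the size seen for Mt2.

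Mtf1, the zinc sensor, was at 58.2, 55.8, 55.0, 51.1 and 56.0 CPM in AAV2-GFP replicates 1 to 5. In AAV206-GFP replicates 1 to 5 it was at 58.1, 43.6, 55.6, 56.9 and 51.6 CPM. AAV206-GFP replicate 2 was the lowest of the 10 libraries and the other libraries of both groups were interleaved. The log2 fold change was −0.06 with a standard error of 0.08, a 95% interval of −0.22 to 0.11 and an edgeR adjusted p of 0.676, and it was 0.0068 without AAV206-GFP replicate 2. The Mtf1 transcript says nothing of how much of its protein was bound to DNA.

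**Figure D1:**
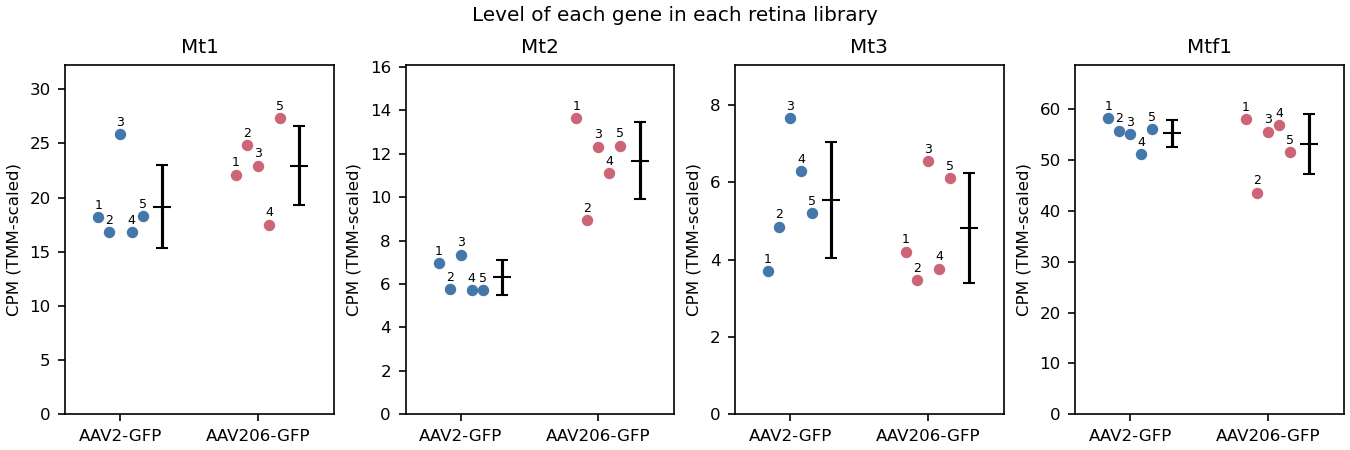
CPM of Mt1, Mt2, Mt3 and Mtf1 in each library of the AAV2-GFP and AAV206-GFP groups (points), with the group mean and SD (n = 5 each). The Mt2 groups do not overlap, at 5.72 to 7.35 against 8.94 to 13.6 CPM, while those of Mt1, Mt3 and Mtf1 do.

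The ratio of Mt1 to Mt2 within a library needs no scaling between libraries. Mt1 CPM divided by Mt2 CPM was 2.61, 2.92, 3.52, 2.93 and 3.19 in AAV2-GFP replicates 1 to 5. It was 1.62, 2.78, 1.86, 1.57 and 2.21 in AAV206-GFP replicates 1 to 5. Only AAV206-GFP replicate 2 reached the AAV2-GFP range, lying above AAV2-GFP replicate 1, so the groups overlapped by that library. The log2 ratio averaged 1.59 ± 0.16 in the AAV2-GFP group and 0.97 ± 0.34 in the AAV206-GFP group (SD, n = 5 each), a difference of −0.62. An exact permutation test, two-sided and over every relabelling, gave p = 0.0159, against a smallest possible value of 0.00794. Mt1 and Mt2 thus differed from each other in their change between capsids. Without AAV2-GFP replicates 1 and 4 the difference was −0.71 with an exact permutation p of 0.0357.

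**Figure D2:**
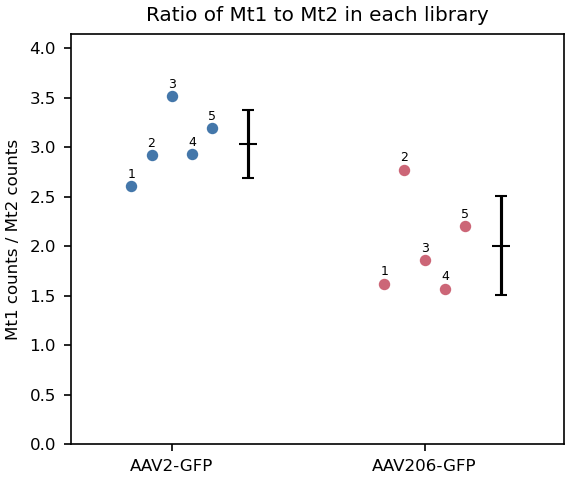
Mt1 counts divided by Mt2 counts in each library (points numbered by replicate), by group, with bars for the group mean and SD (n = 5 each). AAV2-GFP libraries lie between 2.61 and 3.52 and AAV206-GFP libraries between 1.57 and 2.78.

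Levels of different genes were compared as CPM per kilobase of the GENCODE transcript. Over the 10 libraries Mt1 was at 38.3 ± 7.33, Mt2 at 17.6 ± 6.10, Mt3 at 9.67 ± 2.66 and Mtf1 at 7.10 ± 0.579 CPM per kilobase (SD). Mt1 was above Mt2 in every library of both groups, with no overlap, at 30.6 to 47.0 against 11.2 to 14.4 with AAV2-GFP and at 31.9 to 49.7 against 17.5 to 26.7 with AAV206-GFP. Mt2 and Mt3 did not separate with AAV2-GFP, where Mt3 ran from 6.92 to 14.3 CPM per kilobase and Mt2 was above it in 4 of 5 libraries. With AAV206-GFP Mt2 was above Mt3 in 5 of 5 libraries with no overlap, Mt3 being at 6.47 to 12.2 CPM per kilobase. Mt3 and Mtf1 overlapped in both groups, with Mt3 higher in 4 of 5 libraries of each. The lengths are of whole transcripts, while fragments cover the ends of short transcripts less fully, so distances between the metallothioneins and Mtf1 on this scale are the least certain.

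The direction and the call for Mt2 held under all 19 alternatives of scaling, filter, test and library choice, with log2 fold changes of 0.83 to 0.97 and adjusted p-values of 1.5e-06 to 0.0062. Mt1 stayed positive and short of the threshold in all 19, at 0.17 to 0.39 on the log2 scale. Mt3 stayed negative and short of it, at −0.34 to −0.06, and Mtf1 ranged from −0.09 to 0.0068.

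**Figure D3:**
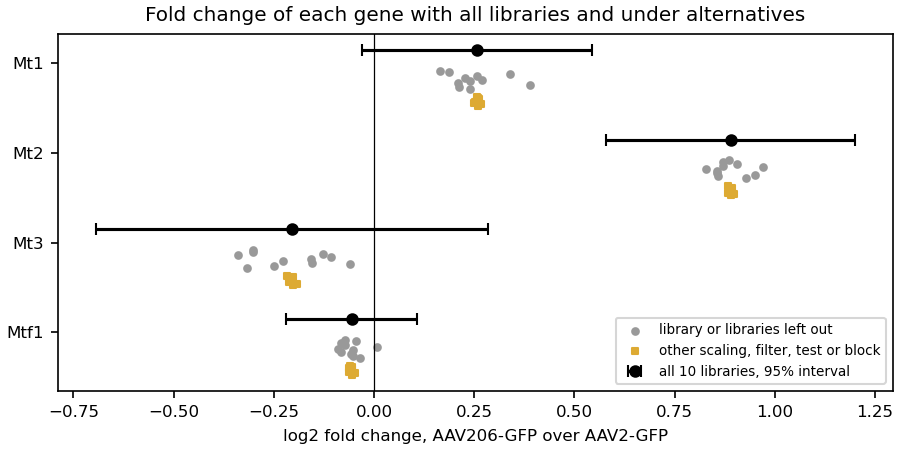
Log2 fold change, AAV206-GFP over AAV2-GFP, of each of the 4 genes in edgeR on all 10 libraries (black, with its 95% interval), with libraries left out (grey) and with other scaling, filter, test or block (yellow). The Mt2 values, 0.83 to 0.97, lie above all values of Mt1, Mt3 and Mtf1.

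Across the 10 libraries the levels of Mt1, Mt3 and Mtf1 were not shown to vary together. Pairs with Mt2 are not given, because its libraries fell into a separate cluster per group. On log2(CPM + 1), with 100000 permutations and Benjamini-Hochberg adjustment over the 3 pairs, Mt1 and Mt3 had r = 0.305 (permutation p = 0.381, adjusted 0.572) and Spearman's coefficient = 0.212 (permutation p = 0.561, adjusted 0.561). Without the 2 libraries farthest from the median of Mt1, r was −0.175. Mt1 and Mtf1 had r = −0.392 (permutation p = 0.279, adjusted 0.572) and Spearman's coefficient = −0.321 (permutation p = 0.368, adjusted 0.552), and r was −0.458 without the farthest 2 libraries. Mt3 and Mtf1 had r = 0.103 (permutation p = 0.806, adjusted 0.806) and Spearman's coefficient = −0.333 (permutation p = 0.349, adjusted 0.552). For this pair r was −0.782 without the farthest 2 libraries, so its value depends on them.

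The genes most like each of the 4 were taken as the 3 with the highest Pearson correlation of log2(CPM + 1) over the 10 libraries, among 11911 genes of at least 5 CPM. These are the top of many values, share libraries and scaling, and carry no test. For Mt2 they were Lrrcc1 (0.951), which encodes a centrosomal protein, Hook2 (0.949), which encodes a microtubule-binding adaptor, and Ebpl (0.945). Mt2 separated the groups, so genes chosen for a high correlation with it over all 10 libraries would tend to be higher with AAV206-GFP. The log2 fold changes of these 3, 0.45 for Lrrcc1, 0.33 for Hook2 and 0.70 for Ebpl, are therefore no separate result. Their correlation with Mt2 on deviations from the group means was lower, at 0.688, 0.759 and 0.554. For Mt1 the genes were Lcmt2 (0.910), Ccdc113 (0.905) and Uchl5 (0.874), and on deviations from the group means the values were 0.894, 0.967 and 0.841. For Mt3 they were Klhdc2 (0.962), Ccdc115 (0.942) and Fbxo2 (0.931), and for Mtf1 they were Ttf1 (0.926), Zfp790 (0.912) and Zfp870 (0.848). No gene was among the nearest 3 of more than 1 of the 4 genes.

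Other genes of the cluster's surroundings were looked at after the Mt2 values were seen. Of 8 other tested genes that reach within 250 kb of the Mt2 start, 1 was higher and 1 was lower with AAV206-GFP. Nup93, a nuclear pore scaffold gene whose start is 41.9 kb beyond that of Mt2, was at 17.6 ± 1.33 and 24.4 ± 2.41 CPM (SD, n = 5 each), higher by 0.47 on the log2 scale (edgeR adjusted p = 0.00471) with no overlap. Herpud1, a gene of endoplasmic reticulum stress and degradation, was at 65.9 ± 4.16 and 55.7 ± 2.53 CPM in the AAV2-GFP and AAV206-GFP groups, lower by −0.24 on the log2 scale (edgeR adjusted p = 0.0221). Its groups did not overlap either, as was so for 9.78% of all tested genes. Its call was lost in 5 of 19 alternatives, with an edgeR adjusted p of up to 0.0893 (without AAV2-GFP replicates 1 and 4), 0.0711 without AAV2-GFP replicate 4, 0.0587 without AAV206-GFP replicate 2 and 0.0566 without AAV206-GFP replicate 4. The other 6, Gnao1 and Bbs2 among them, did not pass, at −0.12 to 0.06 on the log2 scale. The 2 calls among 8 genes stand beside 11.2% of all tested genes, and differences between these genes and Mt1 or Mt2 in their change were not tested.

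The genes that move zinc did not pass the test with AAV206-GFP. Zinc exporters of the Slc30 family carry zinc out of the cytosol and importers of the Slc39 family carry it in, and of 24 such genes 21 were tested. In edgeR 0 of 21 passed and 4 had an unadjusted p under 0.05, beside 4352 of 15539 tested genes. DESeq2 and limma-voom each called 0 of these zinc genes. Their median log2 fold change was −0.02, against −0.01 over all tested genes. Slc30a1, the plasma membrane exporter that MTF-1 induces with Mt1 and Mt2, averaged 54.3 ± 5.97 and 52.8 ± 4.36 CPM in the AAV2-GFP and AAV206-GFP groups (SD, n = 5 each), a log2 fold change of −0.04 with an edgeR adjusted p of 0.786. Slc39a10, an importer gene that MTF-1 represses when zinc is high, was at 52.0 ± 4.50 and 46.2 ± 4.54 CPM, a log2 fold change of −0.17 with an edgeR adjusted p of 0.179. Without AAV2-GFP replicate 1, Slc39a3 was lower with a log2 fold change of −0.25 and an edgeR adjusted p of 0.0304.

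Copper handling genes were likewise mostly short of the threshold in edgeR, with 1 of 13 tested genes higher, near the background of 5.95%, and 0 lower. That gene was Atp7b, an ATPase that pumps copper, which averaged 27.4 ± 3.77 and 34.0 ± 2.29 CPM in the AAV2-GFP and AAV206-GFP groups (SD, n = 5 each). Its log2 fold change was 0.32 with an edgeR adjusted p of 0.0404, the groups overlapped, and the call held in 1 of 10 fits that left out a library. Without AAV2-GFP replicates 1 and 4 its edgeR adjusted p was 0.149. The median of the list was −0.11 on the log2 scale. Commd1, a copper export regulator, was lower at −0.37 without AAV2-GFP replicate 1 (edgeR adjusted p = 0.0209) and at −0.39 without replicates 1 and 4 (edgeR adjusted p = 0.0432), and was not called with all libraries.

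Genes for factors that bind metallothionein promoters besides MTF-1 (Nr3c1, Stat3, Usf1, Usf2, Sp1 and Nfe2l2) gave 0 of 6 calls in edgeR, DESeq2 and limma-voom, with 1 at an unadjusted p under 0.05 in edgeR. Nr3c1, which encodes the glucocorticoid receptor, was at 107, 97.0, 87.3, 92.5 and 103 CPM in AAV2-GFP replicates 1 to 5. In AAV206-GFP replicates 1 to 5 it was at 79.7, 112, 111, 104 and 110 CPM. AAV206-GFP replicate 1 was the lowest of all libraries while the other 4 of its group were high, and the log2 fold change was 0.08 with an edgeR adjusted p of 0.574.

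Genes known to respond to glucocorticoids, which are also inducers of Mt1 and Mt2, were higher in 6 of 15 tested cases (40%) and lower in 0, beside 5.95% and 5.3% of all tested genes. Their median log2 fold change was 0.26, against −0.01 over all tested genes, and DESeq2 and limma-voom also called 6. This list was chosen with earlier results of these data known, so its count is not independent evidence of a direction. Fkbp5, which encodes a cochaperone that restrains the glucocorticoid receptor, was at 22.8, 22.7, 22.3, 24.1 and 21.1 CPM in AAV2-GFP replicates 1 to 5. In AAV206-GFP replicates 1 to 5 it was at 35.8, 32.1, 33.6, 38.8 and 39.5 CPM, so the groups did not overlap. Its log2 fold change was 0.67 with a standard error of 0.08 and an edgeR adjusted p of 7.8e-05, and the call held in 10 of 10 fits that left out a library.

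Arrdc2, an arrestin domain gene, was at 10.4, 9.34, 10.7, 10.6 and 11.4 CPM in AAV2-GFP replicates 1 to 5 and at 29.4, 19.0, 18.7, 17.5 and 19.0 CPM in those of AAV206-GFP. Every AAV206-GFP library was above every AAV2-GFP library and replicate 1 was above the rest, and the log2 fold change was 0.98 (SE 0.14, edgeR adjusted p = 0.000383). Sult1a1, a phenol sulfotransferase gene, was at 2.71, 2.78, 1.39, 1.86 and 2.31 CPM in AAV2-GFP replicates 1 to 5 and at 6.81, 5.47, 5.26, 5.47 and 5.77 CPM in those of AAV206-GFP. These groups did not overlap either, with a log2 fold change of 1.38 (SE 0.21, edgeR adjusted p = 0.000719). Klf9, a transcription factor gene, rose from 136 ± 9.11 to 163 ± 9.45 CPM (SD, n = 5 each) without overlap, or by 0.26 on the log2 scale (edgeR adjusted p = 0.0174).

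The other 2 calls of this list, named after their values were seen, were Zbtb16 and Plin4, and their groups overlapped. Zbtb16, a zinc finger repressor gene, rose from 3.81 ± 1.08 to 7.21 ± 2.33 CPM with an edgeR adjusted p of 0.0301, and the call held in 5 of 10 fits that left out a library. Plin4, a lipid droplet coat gene, rose from 1.73 ± 0.560 to 3.45 ± 1.16 CPM with an edgeR adjusted p of 0.0404, and the call held in 2 of 10 such fits. Without AAV2-GFP replicates 1 and 4 their edgeR adjusted p-values were 0.0809 and 0.0598, and 4 of the list's genes were higher. The list's change was uneven: Tsc22d3, which encodes the glucocorticoid-induced leucine zipper, was at −0.03, Sgk1, a kinase gene, at −0.09 and Per1, a clock gene, at 0.13 on the log2 scale, all short of the threshold. These 3 were also named after their values were seen.

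**Figure D4:**
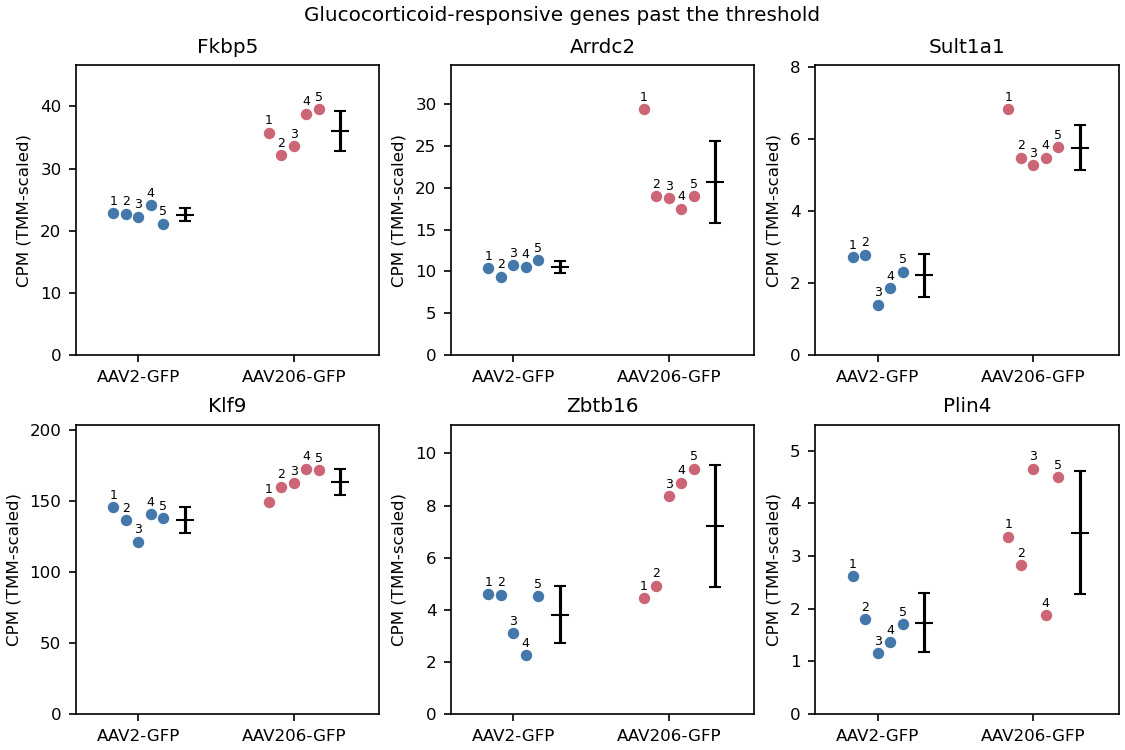
CPM of the 6 glucocorticoid-responsive genes past the threshold in each library (points numbered by replicate), by group, with bars for the mean and SD (n = 5 each). Fkbp5, Arrdc2, Sult1a1 and Klf9 separate the groups, and Zbtb16 and Plin4 overlap.

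Interleukin-6 and STAT3 responsive genes and oxidative stress genes, which stand for some of the other known inducers of Mt1 and Mt2, gave no call with all libraries. Of 11 tested interleukin-6 and STAT3 genes 0 passed in edgeR, DESeq2 or limma-voom, 2 had an unadjusted p under 0.05 in edgeR, and the median log2 fold change was −0.22. AAV2-GFP replicate 1 stood apart here. Fgf2, which encodes a growth factor of retinal injury, was at 77.6 CPM in that library and at 19.9 to 29.9 CPM in the other AAV2-GFP libraries. Lcn2, an acute phase gene, was at 20.5 against 1.62 to 2.98 CPM, and Edn2, an endothelin gene induced by photoreceptor injury, was at 14.4 against 0.309 to 2.42 CPM. Without that library edgeR called all 3 higher with AAV206-GFP, Fgf2 by 0.91 (adjusted p = 9.3e-05), Lcn2 by 0.95 (adjusted p = 0.0186) and Edn2 by 1.301 on the log2 scale (adjusted p = 0.0459). With all libraries the fold changes of Lcn2 and Edn2 were −0.47 and −0.06. In the fit without AAV2-GFP replicate 1, Lif, a cytokine gene too low to test with all libraries, was lower at −1.53 (edgeR adjusted p = 0.0228), and without AAV206-GFP replicate 3 Junb was lower at −0.45 (edgeR adjusted p = 0.0311). These genes were named after their values were seen. Of 11 oxidative stress genes 0 passed in edgeR, DESeq2 or limma-voom, 2 had an unadjusted p under 0.05 in edgeR, and the median was 0.03 on the log2 scale. Me1, an NADPH-producing malic enzyme gene, was higher at 0.20 without AAV206-GFP replicate 1 (edgeR adjusted p = 0.0399).

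**Figure D5:**
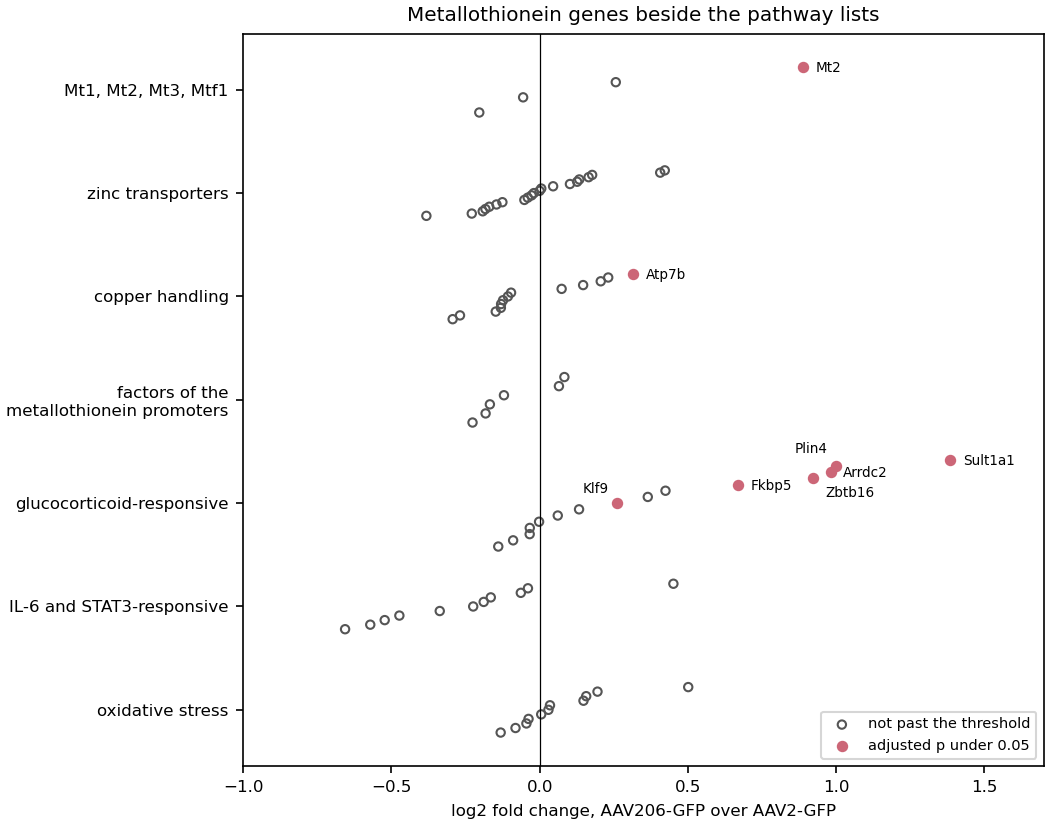
Log2 fold change, AAV206-GFP over AAV2-GFP, of Mt1, Mt2, Mt3, Mtf1 and every tested gene in 6 pathway lists, with filled points for genes with an edgeR adjusted p under 0.05 (height within a row has no meaning). The glucocorticoid-responsive list holds 6 marked genes, the copper list holds 1 and the other 4 lists hold 0.

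Markers of the cells that could carry metallothionein RNA moved as follows, and their part in the Mt2 result was not tested. Müller glia markers gave 0 calls of 10 in edgeR, with 6 at an unadjusted p under 0.05, beside 4352 of 15539 tested genes. DESeq2 called 3 of them, Dkk3 higher and Kcnj10 and Slc1a3 lower, beside 2254 calls over all tested genes. By limma-voom 0 were called. The summed levels of these markers were 3936 to 4861 CPM in the AAV2-GFP and 3536 to 4249 CPM in the AAV206-GFP libraries. Astrocyte markers gave 0 calls of 3 by each tool, 0 at an unadjusted p under 0.05, and sums of 38.6 to 92.2 and 23.7 to 86.9 CPM. The median log2 fold change of the Müller glia markers was −0.19, against 0.89 for Mt2. Pigment epithelium markers gave 1 of 7 lower, Rgr, beside 5.3% lower over all tested genes, and sums of 14.8 to 44.2 and 17.4 to 26.0 CPM. The Rgr call was lost in 9 of 19 alternatives, among them limma-voom (adjusted p = 0.0543) and 7 of 10 fits that left out a library, with edgeR adjusted p-values of up to 0.0864 (without AAV2-GFP replicate 5).

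Red cell markers rose in 4 of 5 genes, among them Hba-a2, Hbb-bs and Hba-a1, beside 5.95% higher over all tested genes. Their summed levels were 67.8 to 85.8 CPM in the AAV2-GFP and 101 to 319 CPM in the AAV206-GFP libraries. Lens markers fell in 2 of 4 tested genes, Cryaa and Crybb2, beside 5.3% lower over all tested genes. Their sums were 13.5 to 30.1 and 1.60 to 16.2 CPM, and the lens marker Lim2 was at 0 in all libraries. The Cryaa call was lost with DESeq2 (adjusted p = 0.0731) and in 5 of 10 fits that left out a library, and its log2 fold change ranged from −4.62 without AAV206-GFP replicate 1 to −2.13 without AAV2-GFP replicate 5. The Crybb2 call was lost without AAV2-GFP replicate 5 (edgeR adjusted p = 0.0507) and without AAV206-GFP replicate 3 (edgeR adjusted p = 0.0519).

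Of the neuronal and vessel markers, beside 5.95% higher and 5.3% lower over all tested genes, 1 of 7 ganglion cell markers fell, Pou4f1, and of 6 endothelial markers Flt1 rose and Kdr and Cldn5 fell. Cldn5 lost its call without AAV2-GFP replicates 1 and 4 (edgeR adjusted p = 0.0711) and without AAV206-GFP replicate 4 (edgeR adjusted p = 0.0527). Microglia and macrophage markers fell in 2 of 9 genes, C1qa and C1qc, with sums of 27.2 to 271 and 22.6 to 31.5 CPM. Without AAV2-GFP replicate 1 neither passed, C1qa going from −2.22 to −0.95 (edgeR adjusted p = 0.0683) and C1qc from −2.13 to −0.97 (edgeR adjusted p = 0.0855) on the log2 scale. Interferon response genes fell in 6 of 8, Bst2, Ifit1 and Ifit3 among them, with sums of 82.5 to 609 and 85.4 to 109 CPM. Without AAV2-GFP replicates 1 and 4 the counts of called microglia and interferon genes were both 0, and edgeR adjusted p-values were 0.124 for C1qa, 0.270 for C1qc, 0.395 for Bst2, 0.257 for Ifit1 and 0.198 for Ifit3. Without AAV2-GFP replicate 4 alone, Bst2, Ifit1 and Ifit3 had edgeR adjusted p-values of 0.0710, 0.0892 and 0.0740. All 5 of these genes also lost their call without AAV206-GFP replicate 2 and without AAV206-GFP replicate 4, at edgeR adjusted p-values of 0.0533 to 0.0878. Both counts were 0 with limma-voom. T and natural killer cell markers were too low to test in all 7 genes, with sums of 0.359 to 14.6 and 0.0897 to 0.949 CPM. Mt2 was as high in AAV206-GFP against the AAV2-GFP libraries without replicates 1 and 4 as against all 5, as given above.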

How the data were processed

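RNA from 10 mouse retina samples (5 per capsid group, assigned by title) was extracted with Trizol, prepared with NEBNext Ultra reagents and read as pairs of 150 bases on a NovaSeq, per the labels' protocols. The authors deposited expected counts per Ensembl gene, unscaled between libraries. STAR 2.7.10b, RSEM 1.3.1 and build mm10 are named per the submitters' processing notes, while their settings and the annotation are not given in the sources used here. Of all values 5.95% carried decimals, and values were rounded to whole numbers before modelling.

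The test was edgeR 4.0.16 (R 4.3.3), with filterByExpr at a minimum count of 10, TMM scaling and the quasi-likelihood F test over 15539 genes, no covariates, Benjamini-Hochberg adjustment over all of them and a threshold of 0.05. Positive log2 fold changes mean higher with AAV206-GFP. Symbols came from GENCODE M21, which named 98.4% of tested genes, promoters from RefSeq (GRCm38.p6) and coding sequences from GENCODE M21. The sequences of all 4 genes were found in these tables.

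The genes and lists were chosen with earlier results of these data known. Named genes were the 4 genes, up to 4 calls per direction in each pathway list with the smallest p, Slc30a1, Slc39a10 and Nr3c1 in every case, the 3 genes most correlated with each of the 4, and up to 3 calls per marker list. Others were named after their values were seen. Some genes are not reported here. Alternatives were RLE, upper-quartile and no scaling factors, no filter or at least 1 CPM in 5 libraries, DESeq2 1.42.0, limma-voom (limma 3.58.1), the replicate number as a block, and libraries left out.

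The floor of 3 counts covers counting error only, and reads without molecular identifiers are not independent molecules. Intervals of the fold changes rest on the standard errors of the edgeR fit, which take in the spread between libraries of a group. Pairs of libraries of 1 group differed by more than sampling noise (chi-square of 3.69 to 22.3 per degree of freedom over 20 pairs). On counts simulated from these libraries (15337 genes, 200 changed), the test found 80.4% of the genes changed 2-fold and 56.7% of those changed 1.5-fold. It made 138 calls with 5 false ones, and 0 calls where nothing had been changed. The counts were drawn separately for each gene, so they held no library set apart across genes, as AAV2-GFP replicates 1 and 4 were. Only 200 genes were changed, where 1747 passed in the data, and the shares found were not split by level.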

Additional observations from a re-analysis of the deposited data

Results flagged for a closer look

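In 13 of 102 sets of 5 values of 1 group, a library lay far from the others, in that the gap to its nearest neighbour divided by the group's range passed 0.71. Chance marks about 1 in 20 such sets, but some genes were named because leaving out 1 library changed their call, so the 13 cannot be set against that share. Mt1 in AAV2-GFP replicate 3 was high, at 25.8 CPM against 16.8 to 18.3 CPM in the other 4 libraries (ratio 0.834). Its nearest gene by likeness, Lcmt2, was low in AAV206-GFP replicate 4, at 24.0 CPM against 27.6 to 28.7 CPM (ratio 0.765).

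Arrdc2 was high in AAV206-GFP replicate 1, at 29.4 CPM against 17.5 to 19.0 CPM (ratio 0.874), and in the same library Nr3c1 was low, at 79.7 CPM against 104 to 112 CPM (ratio 0.742). The summed Müller glia markers were low in AAV206-GFP replicate 4, at 3536 CPM against 4087 to 4249 CPM (ratio 0.773). In AAV2-GFP replicate 1 the summed microglia and macrophage markers were high, at 271 CPM against 27.2 to 52.9 CPM (ratio 0.895). The summed T and natural killer cell markers were high in the same library, at 14.6 CPM against 0.359 to 0.726 CPM (ratio 0.974). Among genes known from retinal injury, that library was also high in Fgf2, at 77.6 CPM against 19.9 to 29.9 CPM (ratio 0.826), in Lcn2, at 20.5 CPM against 1.62 to 2.98 CPM (ratio 0.928), and in Edn2, at 14.4 CPM against 0.309 to 2.42 CPM (ratio 0.85). It was low in the zinc importer gene Slc39a3, at 101 CPM against 124 to 133 CPM (ratio 0.722). Mt2 in the same library was at 6.96 CPM, within the range of its group.

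In AAV206-GFP replicate 3, Tsc22d3 was high, at 33.2 CPM against 26.7 to 28.3 CPM (ratio 0.761), and so was Junb, at 26.2 CPM against 18.3 to 19.5 CPM (ratio 0.852).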

How the results depend on the processing

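Mt1, Mt2 and Mt3 kept their direction and their side of the threshold under all 19 alternatives. Mtf1 turned to 0.0068 without AAV206-GFP replicate 2, with a range of −0.090 to 0.0068 when single libraries were left out. Over all tested genes, 985 (530 higher, 455 lower) passed without AAV2-GFP replicates 1 and 4, and leaving out single libraries gave 991 to 1912 (560 to 1002 higher, 431 to 910 lower), with the lowest count without AAV2-GFP replicate 4, where fewer samples enter the fit. DESeq2 called 2254 genes and limma-voom 1643. Samples with the same replicate number did not deviate together (correlations of −0.0518 to 0.0399 over 5 pairs, and 0 libraries correlated best with their own number), so the numbers were not taken as pairs. With the replicate number as a block, 1085 genes passed (605 higher, 480 lower), Mt2 was at 0.89 with an edgeR adjusted p of 0.0038, and 4 glucocorticoid-responsive genes passed. Sign flips of the Mt1 to Mt2 ratio within this block gave −0.62 with an exact permutation p of 0.0625, the smallest that 5 pairs allow.

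Other directions turned, and the cause was not tested. Slc30a1 was at 0.013 without AAV2-GFP replicate 1 (range −0.088 to 0.013) and at 0.049 without replicates 1 and 4. Ccdc113 was at −0.016 without AAV206-GFP replicate 5 (range −0.016 to 0.26) and at −0.055 without AAV2-GFP replicates 1 and 4. Zfp790 was at 0.058 without AAV206-GFP replicate 2 (range −0.12 to 0.058). Zfp870 ranged from −0.037 to 0.092 with single libraries left out and was at −0.064 without AAV2-GFP replicates 1 and 4. Tsc22d3 ranged from −0.095 to 0.027 with single libraries left out. Lcn2 was at 0.25 with the block, 0.34 by limma-voom and 1.14 without AAV2-GFP replicates 1 and 4, ranging from −0.71 to 0.95 with single libraries left out. Edn2 was at 0.61, 0.89 and 1.57 under these settings, ranging from −0.37 to 1.301. Over the alternatives, calls of lower microglia and interferon genes ranged from 0 to 8 and from 0 to 7. The Mt2 call rests on 64 to 162 counts per library.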
